A study of Rattus norvegicus with 4 samples.

Results

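Transcripts of the enzymes that break down heme, and of the heme-sensing repressor Bach1, were measured in NR8383 cells exposed to NiZnFe2O4. The 5 genes were Hmox1, Hmox2, Blvra, Blvrb and Bach1, chosen by symbol from 16581 genes that could be named on the array, and 7 of 45598 probes were tied to them. NR8383 is a rat macrophage line that was started from a lung lavage of a normal animal and grows both attached and in suspension. All 4 samples were cultures of this line after 20 passages that received NiZnFe2O4, by its formula a nickel zinc iron oxide, at 9.25 µg/mL for 4 h. They are numbered replicates 1 to 4, were called biological replicates by the submitters, and were hybridised to 4 single-colour arrays on 1 slide. The series design sets exposed against unexposed cells; arrays of unexposed cells were not analysed here. The values therefore give the state of the exposed cells and its spread, no test between groups was made, and no value says what the exposure changed.

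Heme oxygenase opens the heme ring and releases biliverdin, carbon monoxide and ferrous iron, and biliverdin reductase then turns biliverdin into bilirubin. Hmox1 is the inducible oxygenase gene, which oxidants, metals and heme itself are known to switch on, while Hmox2 is expressed steadily in many tissues. BACH1 pairs with small MAF proteins on DNA and keeps Hmox1 off; heme binding removes BACH1, and NRF2 then occupies the same sites. Macrophages are known for this pathway because they digest red cells and return the iron to the blood.

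Hmox1, Hmox2, Blvra and Blvrb were well above background on each of the 4 arrays, and Bach1 was so on none. By the same criterion 38.8% of all named genes passed on all 4 arrays, and 51.4% on no array. With 5 genes, 4 of 5 against 38.8% is given as a count and nothing is read from it. A spot is well above background when the flag in the scanner file says so, and a gene passes on an array if any of its probes does. The arrays had between 21812 and 24981 spots well above background, of 58717 each. Of 10 macrophage markers 9 passed on all 4 arrays, the exception being Adgre1 on none. None of 6 lung epithelial, 5 measured lymphocyte or 4 hepatocyte markers passed on all 4. Cd3d and Cd4 of the lymphocyte list passed on 3 of 4, and neither is read as a sign of lymphocytes. Of 5 fibroblast and endothelial markers Cdh5 passed on all 4.

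Promoter stretches were searched for letters that BACH1, NRF2 or related factors are known to recognise. The searched letters were TGAGTCA, the core shared by AP-1 and MAF-type sites, and TGACNNNGC, the core of the antioxidant response element. Both strands were searched in RefSeq promoters of 300 bases (250 before and 50 after each start site) on the build GRCr8, which held 4 of the 5 genes and not Hmox1. The capitals mark the match, and each stretch is printed on the strand of its gene.
Bach1, chr11:40425739-40425768, plus strand, TGAGTCA from base 30 after the start site: cgcggagggagTGAGTCAcctgaccgccgc
Hmox2, chr10:11337673-11337732, minus strand, match from base 95 before the start site: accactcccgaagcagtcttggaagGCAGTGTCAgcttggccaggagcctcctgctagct
Blvra, chr3:134802740-134802799, plus strand, match from base 145 before the start site: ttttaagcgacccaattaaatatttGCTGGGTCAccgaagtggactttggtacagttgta

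In the Hmox2 and Blvra stretches TGACNNNGC lies on the strand opposite to the printed one. Of the 33469 promoters searched, 4.63% held TGAGTCA and 12.1% held TGACNNNGC. Neither was in the Blvrb promoter or in the second of 2 Hmox2 promoters. A match is a run of letters and not a measured binding site, and no array value here bears on binding.

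Hmox1 gave a strong signal in every replicate. Its only probe read 5626, 4856, 3603 and 5198 intensity units on replicates 1 to 4, against a limit of 13.6 to 17.3 units, the dimmest spot that was well above background on each array. The signals lay at least 208.8 times above that limit, and none was saturated. Relative to the 75th percentile of all probes of the same array, the log2 level was 7.08, 7.21, 7.26 and 7.71 on replicates 1 to 4. The mean level was 7.32 ± 0.28 (SD, n = 4). On this scale replicates 1 to 3 lay close together and replicate 4 stood above them, while in raw signal replicate 1 was the brightest and replicate 3 the dimmest. The highest and lowest levels differed 1.55-fold.

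Hmox2, the oxygenase expressed steadily in many tissues, was measured with 1 probe. It read 364, 262, 189 and 235 intensity units on replicates 1 to 4. The log2 level was 3.13, 3.00, 3.01 and 3.24, with a mean of 3.10 ± 0.12 (SD, n = 4). Replicates 2 and 3 were almost equal and replicate 4 was the highest, only 1.18-fold above the lowest. The Hmox1 and Hmox2 values come from different probes, which bind with different strength, so they do not say which oxygenase transcript was more abundant.

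Blvra encodes biliverdin reductase A, which makes the common form of bilirubin, and had 2 probes for the same transcript accession. The brighter probe read 1977, 1410, 981 and 1224 intensity units on replicates 1 to 4. Its log2 level was 5.57, 5.43, 5.38 and 5.63, with a mean of 5.50 ± 0.11 (SD, n = 4). The dimmer probe stood at 1.64, 2.06, 1.70 and 2.16, with a mean of 1.89 ± 0.26 (SD, n = 4). Both were well above background on all 4 arrays, yet they differed by 3.62 ± 0.25 log2 units (SD, n = 4). The array order differed too, since replicate 1 was second highest by the brighter probe and lowest by the dimmer one. This gap between probes of 1 transcript shows on these arrays why levels of different genes were not ranked. The Blvra level below is that of the brighter probe.

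Blvrb encodes biliverdin reductase B, which reduces flavins and other biliverdin forms, and had 1 probe. It read 1478, 1254, 988 and 1205 intensity units on replicates 1 to 4. The log2 level was 5.15, 5.26, 5.39 and 5.61, with a mean of 5.35 ± 0.20 (SD, n = 4). Replicate 4 was the highest and replicate 1 the lowest, as for Hmox1, on the scale used here.

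**Figure D1:**
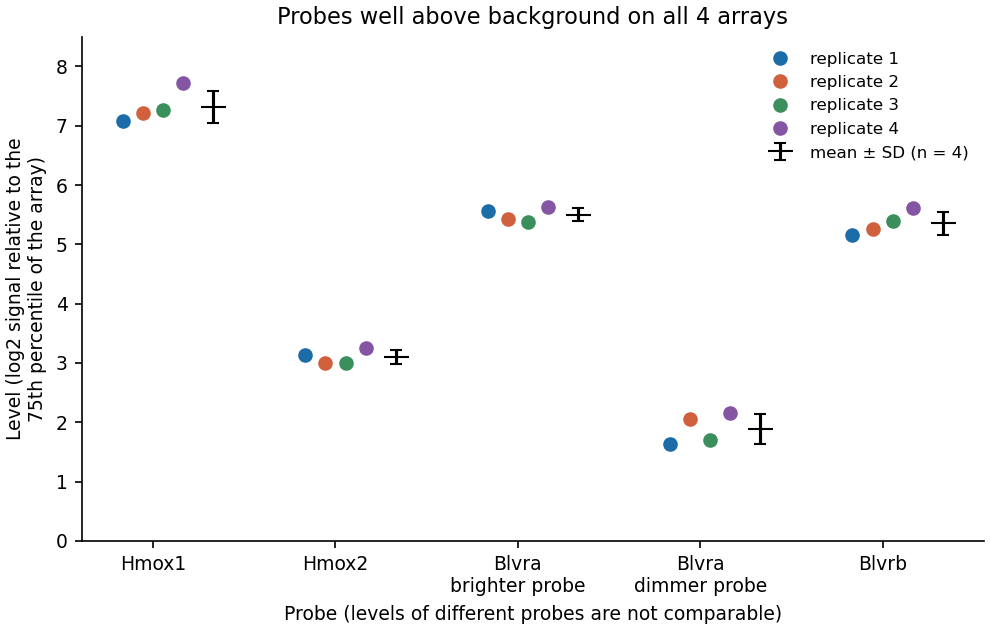
Log2 level of the 5 probes well above background, relative to the 75th percentile of all probes of the array; coloured points are replicates 1 to 4, and black marks are the mean and SD (n = 4). Replicate 4 is the highest point for each probe on this scale, an order that turns with spike-in centring, and the 2 Blvra probes lie 3.62 log2 units apart.

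Bach1, the repressor of this group, was not well above background on any array with either of 2 probes. The first probe read 10.7, 6.65, 3.57 and 8.95 intensity units on replicates 1 to 4, and the second 7.98, 3.42, 3.75 and 4.47. The limit on these arrays was 16.3, 13.6, 17.3 and 16.6 units, so every Bach1 signal lay at or below 0.657 of it. In raw signal both probes were brightest on replicate 1, the array with the highest 75th percentile. Relative to that percentile the first probe was highest on replicate 4 and the second on replicate 1. No order is read from signals below the limit. A looser flag, which marks spots positive and significant against background, was set for the first probe on replicates 1, 2 and 4 and for the second on replicates 1 and 4. Of all named genes, 6.53% were likewise below the stricter limit on every array and past the looser one on 3. The error that the scanner software gave was 34.1% to 41.8% of the first probe's signal on the 3 arrays where it passed and 100.4% on replicate 3. These values set an upper bound for the signal of each probe and give no Bach1 level.

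**Figure D2:**
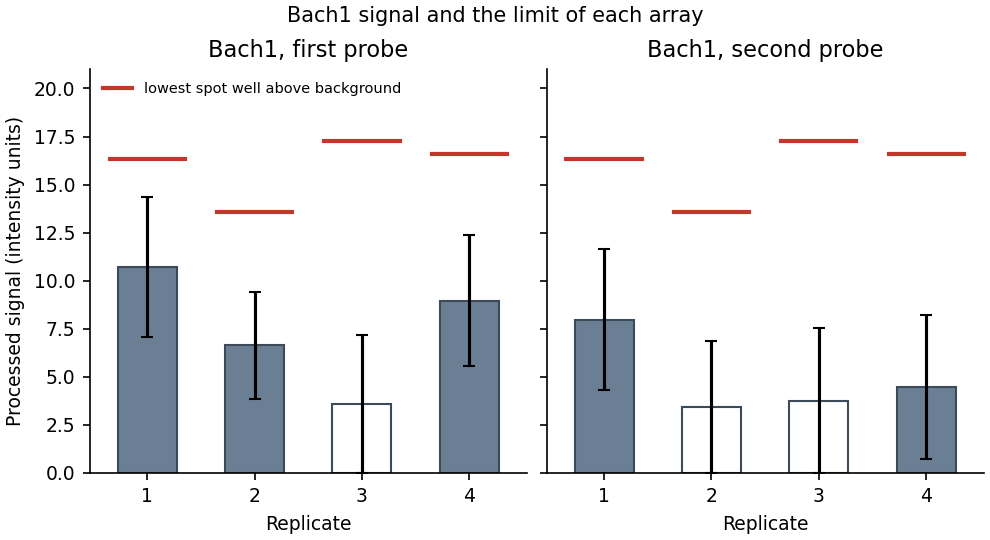
Processed signal of the 2 Bach1 probes in intensity units on replicates 1 to 4, with the scanner software's error as bars cut off at 0. Filled bars passed the looser flag, open bars did not, and the red lines mark the dimmest spot well above background on each array, at 13.6 to 17.3 units.

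The spread between replicates was then set beside that of other genes and beside the error that the scanner software assigned to a spot. Over 6427 genes with a level on all 4 arrays the median SD was 0.23 log2 units, and 10% and 90% of genes lay below 0.10 and 0.43. Hmox2 and Blvra varied little, and 13.1% and 12.8% of these genes had a lower SD. For Blvrb the share was 40.2% and for Hmox1 64.6%. Among genes within 0.5 log2 units of the Hmox1 level, 82.5% of 177 had a lower SD, and their median SD was 0.19. The same share was 57.6% for Blvrb, 20.1% for Blvra and 13.5% for Hmox2. The scanner software put the error of each measured spot of these 4 genes at 10.0% to 11.2% of its signal, about 0.14 log2 units. It was 10.0% on every spot of Hmox1, of the brighter Blvra probe and of Blvrb, nearly a constant. Each probe had 1 spot per array, so the error was not measured from repeated spots. The ratios to it do not say whether a spread exceeds technical error. The SDs of Hmox2 and Blvra were 0.84 and 0.83 times that error, and those of Blvrb and Hmox1 were 1.43 and 2.01 times. The dimmer Blvra probe, with an SD of 0.26, was at 1.80 times. The ratio changes with the scaling, since the SDs of Hmox2, Blvra and Blvrb were 0.51, 0.54 and 0.40 with spike-in centring. Without replicate 4 the SD was 0.095 for Hmox1, 0.073 for Hmox2 and 0.12 for Blvrb, and for Blvra it was 0.097 in place of 0.11. The scanner software's own summary rated replicates 2 and 4 as ones to evaluate and replicates 1 and 3 as in range, and the part of this rating in the spread was not tested.

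**Figure D3:**
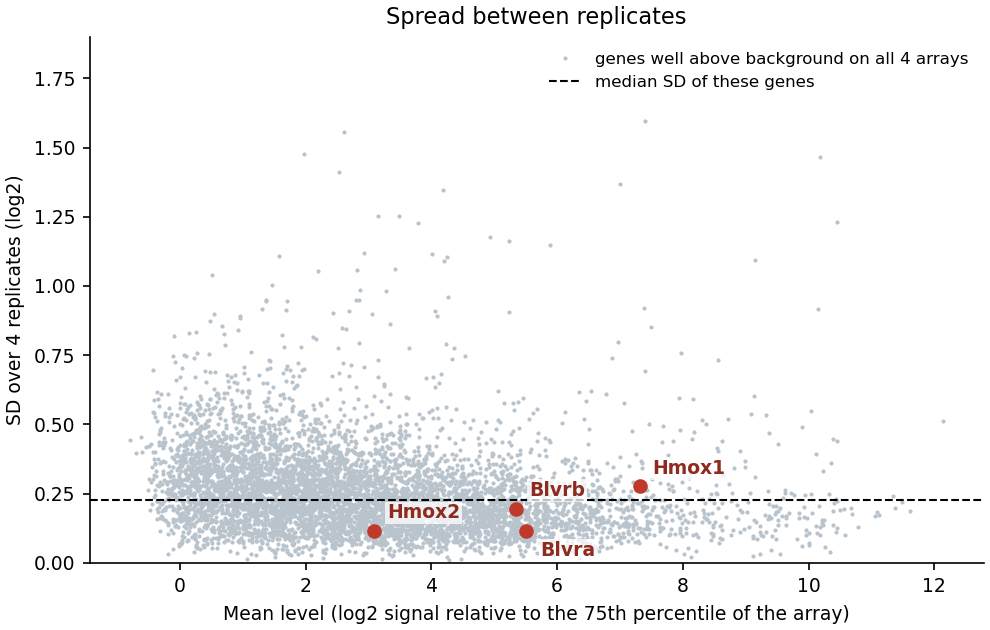
SD over 4 replicates against mean log2 level for the genes well above background on all 4 arrays (grey points), with their median SD as a dashed line and the heme degradation genes in red. Hmox1 lies above the median SD of 0.23, and Hmox2, Blvra and Blvrb lie below it.

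Subtracting 1 constant from an array leaves the difference between a pair of its genes as it was, and the spread of this difference was examined for the 6 pairs. The smallest was that of Hmox2 and the brighter Blvra probe, with an SD of 0.03 log2 units over the 4 arrays. Seen from Hmox2, 0.109% of all genes with a level ran closer, and seen from Blvra 0.171%. These values belong to such scalings and to the brighter Blvra probe alone. The difference between the 2 Blvra probes had an SD of 0.25, so Hmox2 did not run as close to the dimmer one. For Hmox2 and the brighter Blvra probe the SD was 0.087 with quantile normalization and 0.11 with the local trend removed. It was 0.075 with normexp, which also ends in quantile normalization. With quantile normalization 3.72% of genes ran closer to Hmox2 and 4.82% to Blvra, and with normexp 8.45% and 4.64%. Hmox1 and Blvrb had an SD of 0.10, with 3.70% of genes closer to Hmox1 and 7.33% closer to Blvrb. The SD of Hmox1 was 0.21 against Hmox2 and 0.24 against Blvra. Seen from Hmox1, 25.5% and 32.6% of genes were closer than these partners, and seen from Hmox2 and Blvra 39.0% and 46.5% were closer than Hmox1. Relative to Hmox2, Hmox1 was 0.52 log2 units higher on replicate 4 than on replicate 1. For Blvrb against Blvra the SD was 0.20 and for Blvrb against Hmox2 0.17. The pairs and their other settings were looked at after values were known, so these figures describe the 4 arrays only.

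Which replicate was highest depended on the scaling. Replicate 4 was the highest for Hmox1, Hmox2, Blvra and Blvrb relative to the percentile over all probes. It was the lowest for all of them when the arrays were centred on 7 spike-in probes, where replicate 2 was the highest. Without scaling replicate 1 was the highest and replicate 3 the lowest for each. The 75th percentile itself lay between 4.55 and 5.38 log2 units, a 1.77-fold range, and the mean of the spike-in probes between 10.21 and 11.08. For Hmox1 replicate 4 lay 0.40 above its mean with the main scaling, 0.32 with the percentile over detected probes, 0.26 with quantile normalization and -0.34 with the spike-in probes. The order of the replicates is therefore not given as a result for any of these genes.

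**Figure D4:**
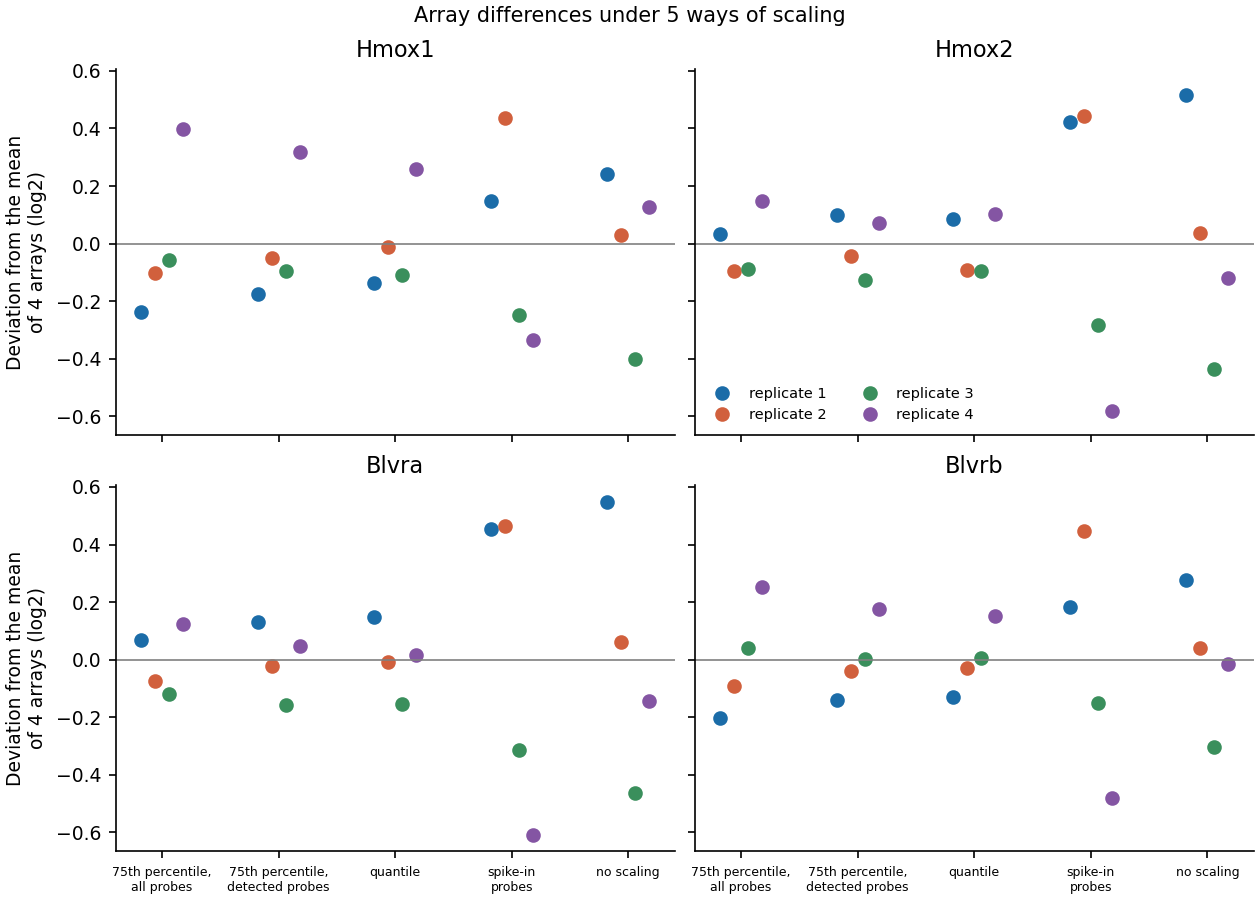
Deviation of each replicate from the mean of the 4 arrays, in log2 units, for Hmox1, Hmox2, Blvra and Blvrb under 5 ways of scaling; coloured points are replicates 1 to 4. Replicate 4 of Hmox1 moves from 0.40 with the main scaling to -0.34 with spike-in centring.

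Signals around the spots of these genes were shifted by up to 0.18 log2 units. That largest shift lay around the dimmer Blvra probe on replicate 4, a probe with an SD of 0.26. Around the Hmox2 spots the shifts were -0.065 to 0.031, smaller than the Hmox2 SD of 0.12. Around the brighter Blvra probe they reached 0.12, beside its SD of 0.11. Within 5 rows and 5 columns of each spot, 29 to 54 neighbours well above background deviated by a median of -0.18 to 0.18 log2 units from the other 3 arrays. Around the brighter Blvra probe on replicate 4 the shift was 0.12, and that replicate lay 0.12 above the Blvra mean. With the local trend removed it lay 0.0016 above, and replicate 1 was the highest for Blvra. Replicate 4 stayed the highest for Hmox1, Hmox2 and Blvrb. None of the 28 spots had an outlier flag.

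Genes with a replicate profile like that of Hmox1 were named by the smallest root mean square difference between profiles centred on their means. Nearest were Iscu, a scaffold gene for iron-sulfur clusters (0.012 log2 units), Dnah10, a dynein chain gene of motile cilia (0.018), and Abcb8, a mitochondrial transporter gene (0.020). Over the 4 arrays Iscu stood at 3.36, 3.46, 3.53 and 3.97, with replicate 4 the highest as for Hmox1. Dnah10 stood at 7.57, 7.66, 7.73 and 8.17, and whether its probe binds other transcripts was not tested. Of 6423 genes compared, 329 lay within 0.1 log2 units of the Hmox1 profile, and a flat profile lay at 0.24. Replicate 4 was the highest array for 37.1% of genes. The likeness rests on 4 points, and its source was not tested.

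Of 8 heme synthesis genes 6 passed on every array, beside a share of 38.8% among all named genes. Alas1, which encodes the first and rate-limiting enzyme, stood at 6.79, 6.78, 6.73 and 7.10 on replicates 1 to 4, with replicate 4 above the rest on this scale and lowest with spike-in centring. Alad, the next enzyme, had a mean level of 5.27 ± 0.23 (SD, n = 4). Urod, which trims the side chains of uroporphyrinogen, stood at 5.50 ± 0.13 and Ppox, which oxidises the ring, at 1.89 ± 0.21 (SD, n = 4 each). Fech, which inserts iron to complete heme, stood at 2.43 ± 0.06 (SD, n = 4). Uros passed on 2 of 4 arrays and Cpox on none.

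Of 8 measured genes that move or scavenge heme 2 passed on all 4 arrays and 6 on none, beside 38.8% and 51.4% of all named genes. Slc48a1, which carries heme out of the phagolysosome, stood at 3.21, 3.37, 3.27 and 4.12 on replicates 1 to 4, with replicate 4 the highest on this scale. Lrp1, the receptor for heme bound to hemopexin, stood at 0.46 ± 0.25 (SD, n = 4). The hemoglobin receptor gene Cd163, the binding proteins Hp and Hpx, and the transporter genes Abcg2, Flvcr2 and Slc46a1 passed on no array. No probe could be tied to Flvcr1, a heme exporter. Among genes that work with the oxygenase or its products, Por, the reductase that feeds it electrons, stood at 3.34, 3.59, 3.55 and 4.05. Abcc2, which exports conjugated bilirubin, passed on 1 array, and the carbon monoxide sensor subunits Gucy1a1 and Gucy1b1 on none. Por was thus 1 of 4 measured genes to pass on all 4 arrays, beside the 38.8%, and Ugt1a1, which conjugates bilirubin, had no probe tied to its symbol.

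Of 9 partners and controllers of BACH1 6 passed on each of the 4 arrays, Mafk on 1, and 2 did not pass, beside 38.8% of all named genes on all 4. Nfe2l2, which encodes NRF2, stood at 3.79, 3.91, 3.79 and 3.81, and its inhibitor Keap1 at 1.27, 1.29, 1.28 and 1.47. On this scale the SDs were 0.06 and 0.10 and replicate 4 of Keap1 was the highest. With spike-in centring the SDs were 0.61 and 0.50 and replicate 4 of Keap1 was the lowest at 0.74. Among small MAF partners Mafg stood at 2.97 ± 0.29 and Maff at 0.72 ± 0.16 (SD, n = 4 each), while Mafk has no level. Fbxo22, a ubiquitin ligase subunit that marks BACH1 for degradation, stood at 1.05 ± 0.15, and the nuclear exporter Xpo1 at 2.21 ± 0.28 (SD, n = 4 each). Fbxl17, another such ligase subunit, and Bach2, the paralog of Bach1, passed on no array.

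Genes that BACH1 is known to repress, Hmox1 left aside, passed on every array in 8 of 10 cases, beside 38.8% of all named genes. Srxn1, which repairs peroxiredoxins, stood at 5.95, 5.74, 5.01 and 5.55 on replicates 1 to 4, with replicate 3 the lowest on this scale and replicate 4, at 4.81, with spike-in centring. The ferritin genes Fth1 and Ftl1, which store the iron that heme breakdown releases, stood at 11.06 ± 0.17 and 11.48 ± 0.22 (SD, n = 4 each). Whether their probes bind transcripts of similar sequence was not tested. Gclc, the catalytic subunit of glutathione synthesis, stood at 3.82 ± 0.11, the cystine carrier Slc7a11 at 3.52 ± 0.31 and Me1, which makes NADPH, at 4.55 ± 0.07 (SD, n = 4 each). Nqo1, a quinone reductase, stood at 0.27 ± 0.05 and the thioredoxin reductase Txnrd1 at 1.30 ± 0.21 (SD, n = 4 each). Slc40a1, which encodes ferroportin and exports iron from macrophages, and Gclm, the glutathione synthesis modifier, did not pass on any array. Slc7a11, Txnrd1 and Ppox each had a second probe that did not pass on all 4 arrays.

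Red cell genes were counted too, although the samples were cultures of a macrophage line and the labels name no erythroid cells. Of 8 measured erythroid markers 2 passed on all 4 arrays, beside 38.8% of all named genes: Hba-a1 at 1.60 ± 0.47 and the erythropoietin receptor Epor at 0.54 ± 0.63 (SD, n = 4 each). The SDs of both were above the 90th percentile of all genes with a level. Klf1 passed on 2 arrays, Slc4a1 on 1, and Hbb, Hba-a2 and the erythroid heme synthesis gene Alas2 on none. The source of the signals of these erythroid markers in cultures of a macrophage line was not tested.

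**Figure D5:**
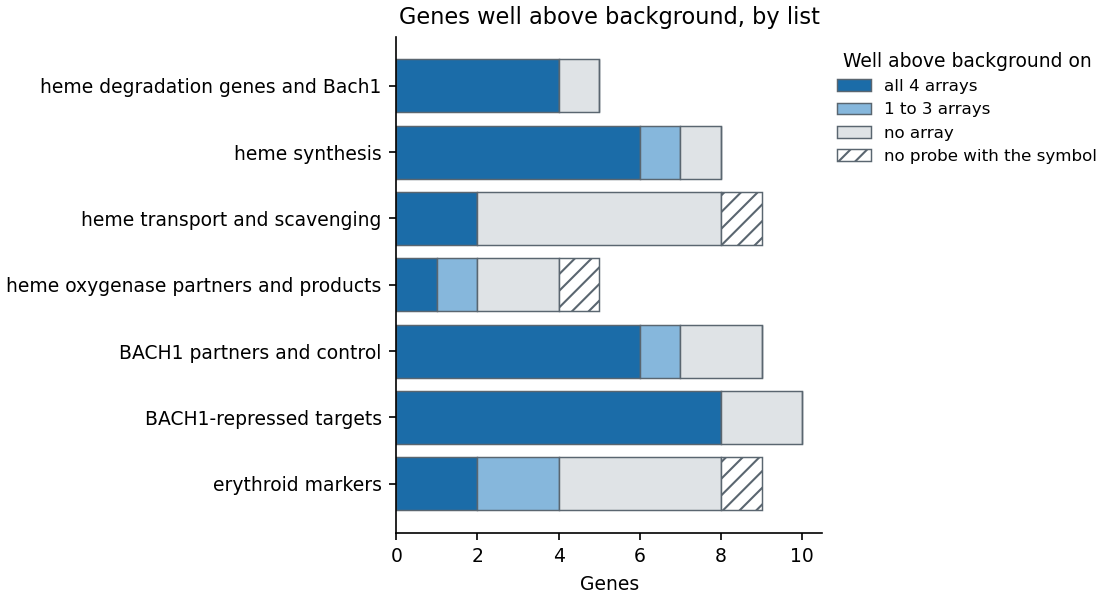
Number of genes per list (horizontal axis) that passed the background flag on all 4 arrays, on 1 to 3 arrays or on none, or that had no probe tied to their symbol. All 4 arrays were passed by 6 of 8 heme synthesis genes, 8 of 10 genes repressed by BACH1 and 2 of 8 heme transport and scavenging genes, beside 38.8% of all named genes.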

How the data were processed

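Per the submitters' processing notes, the scans were quantified in Agilent Feature Extraction (version 11.0.1.1). Per the file headers, the deposited values are linear intensities: a processed signal with its error, median spot and background signals, and flags coded 0 or 1. They are not scaled between arrays. Control spots (4259 per array) and outlier spots (491 to 828) were left out, spots of a probe were averaged as log2, and each array was scaled by subtracting its 75th percentile, taken over all probes. Accessions matched 21109 probes to 1 RefSeq symbol (GRCr8) and 24489 to none. The array design names the build rn4, so no gene coordinates are given; the promoter stretches carry those of GRCr8. Genes with several probes take the level of the one with the highest mean. A probe passes when at least 0.5 of its spots carry the flag. The number of arrays limits precision.

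Named genes were the 5 members, the genes of the fixed lists and the 3 profiles nearest to Hmox1. Some genes of the lists are counted but not reported here by name. Members and lists were chosen with earlier results of these data known. Alternatives were other scalings, normexp correction of the median signal, the mean of all probes, a local correction, other flags and leaving out replicates. The normexp correction used an offset of 50 and was followed by quantile normalization (R 4.3.3, limma 3.58.1). It is therefore not independent of the setting with quantile normalization alone. The procedure was tested on simulated data. Other steps ran in Python 3.11.15 with numpy 2.4.6 and pandas 2.3.3.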

Additional observations from a re-analysis of the deposited data

Results flagged for a closer look

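Dixon's ratio, the gap of 1 array to its nearest neighbour over the whole range, was taken for 39 genes with a level, and 3 lay above the 95% critical value. Chance gives about 1 in 20, and over 6427 genes the share was 4.90%. None of Hmox1, Hmox2, Blvra and Blvrb was among them, and Hmox1 was nearest with a ratio of 0.713. Alas1 was high on replicate 4 (7.10 against 6.73 to 6.79, ratio 0.851), and its ratio was below the limit with the percentile over detected probes (0.519), quantile normalization (0.632), spike-in centring (0.183) and no scaling (0.50), while with normexp (0.935) the array apart was replicate 3, low at 4.99. Keap1 was high on replicate 4 (1.47 against 1.27 to 1.29, ratio 0.902) and stayed above the limit with quantile normalization (0.846) but not with the percentile over detected probes (0.590), normexp (0.595) or no scaling (0.405), nor with spike-in centring (0.321), where replicate 4 was the lowest at 0.74. Txnrd1 was low on replicate 4 (0.98 against 1.38 to 1.41, ratio 0.932), also with the percentile over detected probes (0.841) and quantile normalization (0.938). Its ratio was below the limit with spike-in centring (0.571), normexp (0.519) and no scaling (0.309), and its second probe, which passed on 3 arrays, was highest there at -0.01.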

How the results depend on the processing

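No paired analysis was possible because the labels give 1 group. Slide could not be a block, since there was 1. For Bach1 no level or SD is reported, since neither probe was well above background on any array. With the percentile over detected probes, which shifts the zero point, Hmox1, Hmox2, Blvra and Blvrb stood at 2.86, -1.36, 1.05 and 0.90. With normexp, which adds an offset and then quantile normalization, they stood at 5.64, 1.78, 3.87 and 3.80. Blvra stood at 3.69 as the mean of its probes. SDs of these 4 genes moved over 1.5 times in 13 of 44 cases. With spike-in centring they were 0.51 for Hmox2, 0.54 for Blvra and 0.40 for Blvrb, and without scaling 0.40 for Hmox2 and 0.42 for Blvra. They were 0.18 for Hmox1 and 0.12 for Blvrb with quantile normalization, and 0.18, 0.061 and 0.12 for Hmox1, Hmox2 and Blvrb with normexp. Both of these settings include quantile normalization. The cause of these shifts in SD was not tested. Leaving out 1 replicate gave 0.095 to 0.33 for Hmox1, 0.073 to 0.14 for Hmox2 and 0.12 to 0.24 for Blvrb, lowest without replicate 4 in each case. With the looser flag Bach1 passed on 3 arrays, and 2 oxygenase partner genes and 4 erythroid genes passed on all 4 arrays, where 51.4% of all named genes did. The other 47 counts per list stayed within 1.5 times.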
